A study of Mus musculus with 16 samples.

Results

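The complement system was described here through 33 genes of its components, regulators and receptors, measured in mouse liver among 19505 genes. A list of 35 genes was looked up by exact symbol in the platform annotation. 33 were found, each through 1 probe set, and C3 and Cfd are not analysed here. The samples were liver biopsies of C57BL/6 mice, 8 from the control group and 8 from a nonalcoholic steatohepatitis (NASH) model, that is, fatty liver with inflammation. The labels name no allele, diet, drug, age or sex for either group, and how the model was induced is not stated. Each sample keeps its label number here, and the NASH model group includes samples 1a and 1b. The study's title concerns stimulation of soluble guanylate cyclase, but no sample used here is labelled as treated, so the comparison asks how complement genes of the model liver differed from those of the control liver.

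Complement is a cascade of plasma proteins that marks surfaces, recruits phagocytes and forms a membrane pore. It is started by C1q bound to antibody or other targets (classical pathway), by collectins and ficolins bound to sugars (lectin pathway) or by spontaneous activation (alternative pathway), and the fragments it releases act on receptors of myeloid cells. Hepatocytes make most of the plasma components, while C1q is made mainly by macrophages and related cells.

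Values are log2 array intensities after quantile normalization, and differences are log2 fold changes, NASH model minus control, with their standard error (SE) from limma, a linear model over all genes. Calls were made where the p, adjusted by Benjamini-Hochberg across the 19505 genes, was under 0.05. At that limit 26.6% of all genes were called, 13.2% higher and 13.4% lower in the NASH model. Hepatocyte markers were bright in both groups, with Alb, which encodes serum albumin, at 12.62 in the controls and 12.64 in the NASH model. Of 15 hepatocyte markers 0 were called higher and 5 lower, each without overlap: the coagulation factor gene F7 at -0.84 ± 0.11, the transcription factor genes Foxa2 at -0.76 ± 0.14, Cebpa at -0.67 ± 0.10 and Hnf4a at -0.66 ± 0.10, and the fibrinogen gene Fgb at -0.35 ± 0.09. Apob (0.18 ± 0.07) and Ahsg (0.17 ± 0.07) were higher in every NASH model sample than in every control but were not called (adjusted p = 0.052 and 0.059). Of the 15 differences 8 were positive and 7 negative, with a median of 0.01. The sign went with brightness. The 8 positive ones belonged to the brightest markers, with means over the 16 samples of 11.58 to 12.63, where the highest deposited value was 12.74. The 7 negative ones had means of 6.2 to 11.47. The part of that upper limit in these differences was not tested. The part of these markers in the lower complement genes was not tested. The mean over the 15 lay between 11.00 and 11.09 in the controls and between 10.78 and 10.89 in the NASH model.

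Of the 33 complement genes 24 were called, 6 higher and 18 lower in the NASH model, and 9 did not pass. Over all genes 26.6% were called, 13.2% higher and 13.4% lower. The median difference of the 33 was -0.47, against -0.04 over all genes. The 6 that rose were the 3 chains of C1q, the receptors C3ar1 and C5ar1, and Clu. The 18 that fell included all 5 lectin pathway genes and 6 of 7 terminal components. For 19 of the 33 the groups did not overlap, 5 higher and 14 lower, as was the case for 9.54% of all genes, 5.65% higher and 3.89% lower. Calls were more frequent among brighter genes: without the dimmest 40%, 44.2% of genes were called. Of 241 genes with a mean of 10 or more, 55 were called higher and 66 lower, and 45 higher and 46 lower did not overlap. Of the 10 complement genes this bright, 1 was called higher and 5 lower, and 0 higher and 5 lower did not overlap. At least 2-fold differences were called for 5 complement genes in each direction, against 5.22% of all genes, 4.02% higher and 1.19% lower.

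**Figure D1:**
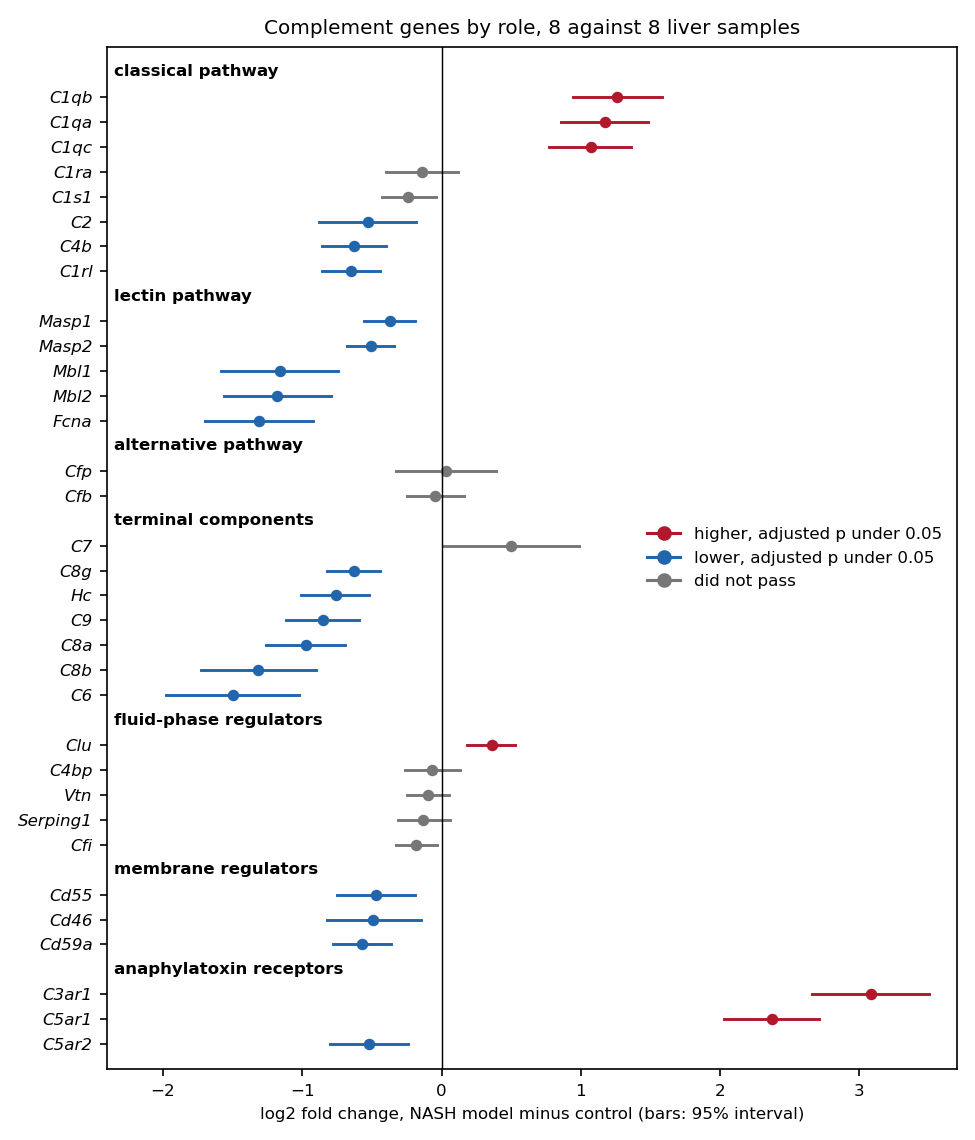
Log2 fold change of each of the 33 complement genes, NASH model minus control, with its 95% interval from limma, grouped by role and coloured by call. The C1q chains, C3ar1, C5ar1 and Clu lie to the right of 0, and the lectin pathway genes and 6 of 7 terminal components lie to the left.

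The 3 chains of C1q, the recognition molecule of the classical pathway, rose together. C1qa lay between 6.23 and 7.34 in the controls (median 6.86) and between 7.75 and 8.29 in the NASH model (median 8.00). Every NASH model sample was above every control, a difference of 1.17 ± 0.15 SE or 2.25-fold (adjusted p = 6.1e-06). C1qb was at 6.87 to 8.00 in the controls (median 7.48) and at 8.60 to 9.10 in the NASH model (median 8.77), a rise of 1.26 ± 0.15 (adjusted p = 3.5e-06). C1qc was at 5.97 to 7.20 (median 6.63) and at 7.5 to 7.94 (median 7.78), a rise of 1.07 ± 0.14 (adjusted p = 9.6e-06). The chains assemble into 1 protein, and in both cases, as for C1qa, the groups did not overlap. Their spread was wider in the controls, with SDs of 0.39 to 0.43, than in the NASH model, with SDs of 0.14 to 0.19. Control 5 and control 10 were the 2 lowest controls for all 3 chains, and without them the rises were 0.99 ± 0.13, 1.07 ± 0.12 and 0.91 ± 0.12 for C1qa, C1qb and C1qc.

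Macrophage markers moved in the same samples. Of 9 pan-macrophage markers 8 rose and 0 fell, with a median of 1.39, and their mean level ran from 5.75 to 6.59 in the controls and from 7.53 to 7.86 in the NASH model. The largest rises among them were those of Lyz2, a lysozyme of myeloid cells, at 3.16 ± 0.17, Tyrobp, a signalling adaptor of myeloid receptors, at 2.48 ± 0.12, and Cd14, a co-receptor for bacterial lipopolysaccharide. Among genes that mark recruited or lipid-associated macrophages, 11 of 11 rose, with a median of 2.77 and a mean level of 3.32 to 3.89 in the controls and 6.93 to 7.45 in the NASH model. Of 8 markers of Kupffer cells, the resident liver macrophages, 1 rose and 4 fell, and their mean level ran from 5.73 to 7.0 in the controls and from 5.06 to 5.87 in the NASH model. The part of these cells in the C1q rise was not tested. In bulk liver RNA a change in the number of cells of a type and a change in RNA per cell cannot be told apart.

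The C1q genes lie side by side on chromosome 4 in the order C1qb, C1qc, C1qa in RefSeq (GRCm38.p6). The promoter sequences of C1qb and C1qc, the 250 bases before the start of each gene, are shown because these neighbours rose together. Capitals mark matches to GAGGAA on either strand, the core that PU.1, a transcription factor of macrophages, is known to bind. C1qb has 1 such match, 30 bases before the start, and C1qc has 1, 193 bases before it. The letters are found in the same window of 23.1% of 27025 RefSeq promoters, so that a match describes the sequence and no more.
C1qb (chr4:136886201-136886450, minus strand): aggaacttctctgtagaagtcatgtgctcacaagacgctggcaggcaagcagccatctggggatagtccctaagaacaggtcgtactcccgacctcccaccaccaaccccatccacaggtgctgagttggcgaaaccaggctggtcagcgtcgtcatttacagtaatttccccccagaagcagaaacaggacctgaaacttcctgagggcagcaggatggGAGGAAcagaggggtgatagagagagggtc
C1qc (chr4:136892915-136893164, minus strand): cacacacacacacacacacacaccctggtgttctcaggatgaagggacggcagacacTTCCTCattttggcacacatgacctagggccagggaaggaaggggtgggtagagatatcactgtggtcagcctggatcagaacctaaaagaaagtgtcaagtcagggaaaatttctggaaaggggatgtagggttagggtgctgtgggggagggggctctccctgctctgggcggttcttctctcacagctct

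The proteases and substrates that act after C1q did not rise. C1ra, which encodes the protease that C1q activates first, was at 8.94 to 9.32 in the controls (median 9.11) and 8.38 to 9.30 in the NASH model (median 9.16), with a difference of -0.14 and a 95% interval of -0.40 to 0.12. C1s1, the protease that cleaves C4 and C2, was at 9.58 to 9.78 and at 9.03 to 9.68. Its difference of -0.24 ± 0.09 missed the threshold (adjusted p = 0.065), although 7 of 8 NASH model samples were below the lowest control. The exception was NASH model 1a, and without it C1s1 passed (-0.27 ± 0.09, adjusted p = 0.035). It also passed with array median centring, without the dimmest genes, with samples 1a and 1b averaged, with a robust trended fit and in the exact permutation test.

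C1rl, a relative of C1r, fell from 8.31 to 8.51 in the controls (median 8.40) to 7.38 to 8.10 in the NASH model (median 7.81), by 0.65 ± 0.10 SE (adjusted p = 6.6e-05). C1rl, C1ra and C1s1 are neighbours on chromosome 6, and C1rl was the only 1 of the 3 that was called. C4b, which encodes the substrate C4, was at 9.99 to 10.61 in the controls (median 10.46) and 9.39 to 9.91 in the NASH model (median 9.79), a fall of 0.63 ± 0.11 SE with no overlap (adjusted p = 2.0e-04). C2, the protease subunit of the classical C3 convertase, was at 7.21 to 8.03 and at 6.41 to 7.46, with overlap. It passed at -0.53 ± 0.17 (adjusted p = 0.023), but not without NASH model 2 and 7, its 2 lowest samples at 6.48 and 6.41 (-0.32 ± 0.13, adjusted p = 0.098). With control 5 and 10, its 2 lowest controls, left out as well, it passed (-0.44 ± 0.11, adjusted p = 0.011). Other settings given below also lost the C2 call. C1ra, C1s1 and C4b have close copies in C1rb, C1s2 and C4a, whose transcripts may cross-hybridise, so the values of these genes are less certain.

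All 5 lectin pathway genes fell and none of them overlapped between the groups. Mbl1 and Mbl2 encode the mannose-binding lectins, collectins that bind sugars on microbes. Mbl1 lay between 8.25 and 9.15 in the controls (median 8.89) and between 6.62 and 8.09 in the NASH model (median 7.92), a fall of 1.16 ± 0.20 SE (adjusted p = 1.8e-04). NASH model 7, at 6.62, and NASH model 2, at 7.02, were the lowest, and the other 6 lay between 7.76 and 8.09. Without these 2 samples the difference was -0.88 ± 0.13 (adjusted p = 1.1e-04). Mbl2 lay between 8.47 and 9.07 (median 8.83) and between 6.65 and 8.39 (median 7.69), a fall of 1.18 ± 0.18 SE (adjusted p = 6.2e-05).

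Fcna encodes ficolin A, a sugar-binding starter of the lectin pathway that mouse macrophages are known to make. It lay between 6.65 and 7.33 in the controls (median 6.86) and between 4.88 and 6.30 in the NASH model (median 5.49). Fcna fell by 1.31 ± 0.19 SE or 2.48-fold (adjusted p = 2.1e-05), the largest fall in the lectin group, while the pan-macrophage markers rose. The 8 Kupffer cell markers were mixed. Cd163 (-2.84 ± 0.13), Timd4 (-2.0 ± 0.25), Clec4f (-0.97 ± 0.23) and Folr2 (-0.67 ± 0.21) fell and Cd5l (0.65 ± 0.18) rose. Marco (-0.50 ± 0.35), Vsig4 (-0.19 ± 0.20) and Clec1b (0.08 ± 0.12) did not pass. Their part in the fall of Fcna was not tested. The proteases fell by less. Masp1, which activates Masp2, went from 8.37 to 8.74 in the controls (median 8.49) to 7.84 to 8.29 in the NASH model (median 8.17), a difference of -0.37 ± 0.09 (adjusted p = 0.0034). Masp2, which cleaves C4 and C2, went from 10.89 to 11.09 (median 11.01) to 10.27 to 10.73 (median 10.50), a difference of -0.51 ± 0.08 (adjusted p = 9.1e-05).

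The alternative pathway was represented by 2 genes, and neither passed. Cfb, which encodes the protease subunit of the alternative convertase, lay between 9.64 and 10.22 in the controls (median 9.85), and in the NASH model its median was 9.86 and its lowest value 9.69. Its difference was -0.05, with a 95% interval of -0.25 to 0.16. Cfp, which encodes properdin, the stabiliser of that convertase made by myeloid cells, lay between 6.55 and 7.78 and between 6.70 and 7.49. Its difference was 0.03, with an interval of -0.33 to 0.39. The groups overlapped for both genes. Cfb lies next to C2 on chromosome 17 in RefSeq.

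Of the 7 terminal components, which assemble into the membrane attack complex, 6 fell without overlap and C7 did not pass. C6 showed the largest difference. It lay between 10.19 and 11.14 in the controls (median 10.88) and between 8.08 and 9.70 in the NASH model (median 9.56), a fall of 1.5 ± 0.23 SE or 2.83-fold (adjusted p = 4.6e-05). NASH model 7 (8.08) and NASH model 2 (8.46) lay apart from the other 6, which were at 9.53 to 9.70. Without them the difference was -1.17 ± 0.15 (adjusted p = 1.6e-05), and without control 5 and control 10, the lowest controls, it was -1.68 ± 0.23.

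All 3 subunits of C8, which begins to insert the complex into the membrane, fell. C8b lay between 9.27 and 10.21 in the controls (median 10.04) and between 7.73 and 8.97 in the NASH model (median 8.77), a fall of 1.32 ± 0.20 SE (adjusted p = 4.5e-05). As for C6, NASH model 2 (7.79) and NASH model 7 (7.73) were the lowest, and without them the difference was -1.05 ± 0.15. C8a lay between 7.79 and 8.76 (median 8.31) and between 6.87 and 7.69 (median 7.34), a fall of 0.97 ± 0.14 SE (adjusted p = 1.8e-05). C8g, which encodes a lipocalin and not a relative of the other 2 subunits, went from 10.70 to 11.14 (median 10.87) to 10.03 to 10.56 (median 10.20). It fell by 0.63 ± 0.09 SE (adjusted p = 3.1e-05). Differences between the subunits were not tested.

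Hc, the mouse gene of C5, which starts the complex and releases the fragment C5a, lay between 9.89 and 10.71 in the controls (median 10.51) and between 9.42 and 9.82 in the NASH model (median 9.62). It fell by 0.76 ± 0.12 SE (adjusted p = 5.3e-05). C9, which polymerises into the pore, lay between 9.65 and 10.43 (median 10.28) and between 8.96 and 9.59 (median 9.23), a fall of 0.85 ± 0.13 SE (adjusted p = 4.0e-05). The lowest controls in C9 were control 10 (9.65) and control 5 (9.66), close to the highest NASH model sample, and the other 6 controls were at 10.26 to 10.43. C7, which anchors the complex to the membrane, was near the background floor of 2.89, the 95th percentile of olfactory and vomeronasal receptor genes. It lay between 2.88 and 4.65 in the controls (median 3.96) and between 4.03 and 5.08 in the NASH model (median 4.32). Its difference of 0.50 ± 0.23 did not pass (adjusted p = 0.12), but passed with arrays centred on spike-in controls (0.71 ± 0.24, adjusted p = 0.037).

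**Figure D2:**
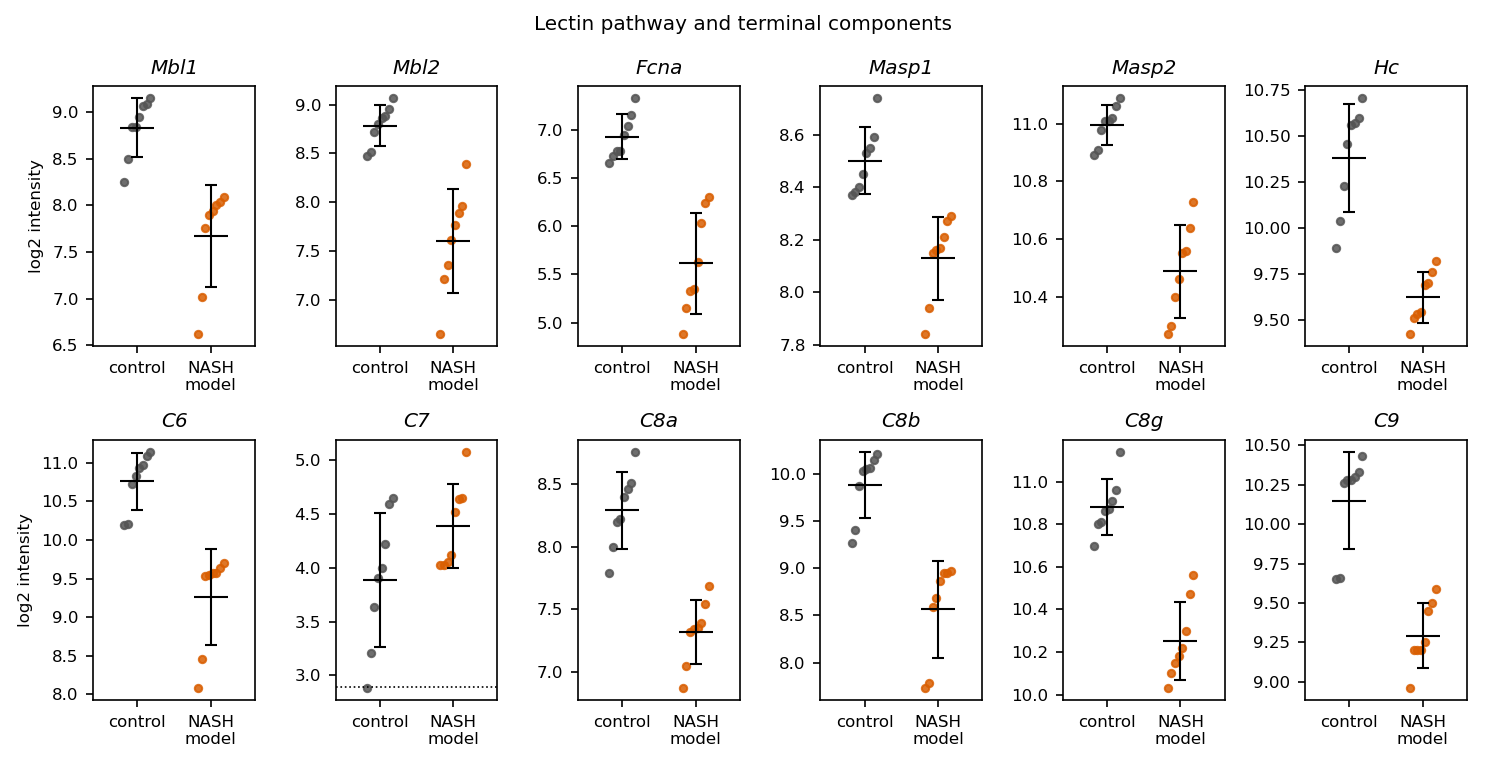
Log2 intensity of the 5 lectin pathway genes and 7 terminal components, 1 point per sample, with bars for the mean and SD of 8 samples and a dotted line at the background floor of 2.89. The groups do not overlap except for C7, and the 2 lowest NASH model points of Mbl1, C6 and C8b are NASH model 2 and NASH model 7.

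Neighbouring terminal genes moved together in 1 place and apart in another. C8b and C8a are adjacent on chromosome 4 and both fell. C6 and C7 are on chromosome 15 with 1 protein-coding gene between them, and C6 fell while C7 did not pass. The 250 bases before the start of each gene are shown for this reason (RefSeq, GRCm38.p6). Capitals mark GTTAAT on either strand, part of the site of HNF1, a hepatocyte transcription factor, which 6.52% of all RefSeq promoters hold in this window, and TATAAA, a core promoter element, which 13.0% hold. GTTAAT matched 206 bases before the start of C8b, 107 before that of C8a and 178 before that of C7. TATAAA matched 6 bases before the start of C7, but as TTTATA, on the strand opposite to the gene. This match describes the letters and does not show that C7 has a TATA box. No match was found in the C6 window, which says only that these letters are not in it.
C8b (chr4:104766067-104766316, plus strand): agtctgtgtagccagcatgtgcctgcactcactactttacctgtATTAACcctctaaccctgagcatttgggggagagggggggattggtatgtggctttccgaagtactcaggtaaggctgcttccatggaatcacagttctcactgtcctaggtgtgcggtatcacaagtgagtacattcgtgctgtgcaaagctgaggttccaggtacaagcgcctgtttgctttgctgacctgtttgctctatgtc
C8a (chr4:104876399-104876648, minus strand): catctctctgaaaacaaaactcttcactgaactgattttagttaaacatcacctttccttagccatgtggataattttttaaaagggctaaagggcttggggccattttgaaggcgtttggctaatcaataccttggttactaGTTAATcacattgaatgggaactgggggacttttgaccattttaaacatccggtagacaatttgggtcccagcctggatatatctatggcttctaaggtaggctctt
C6 (chr15:4726960-4727209, plus strand): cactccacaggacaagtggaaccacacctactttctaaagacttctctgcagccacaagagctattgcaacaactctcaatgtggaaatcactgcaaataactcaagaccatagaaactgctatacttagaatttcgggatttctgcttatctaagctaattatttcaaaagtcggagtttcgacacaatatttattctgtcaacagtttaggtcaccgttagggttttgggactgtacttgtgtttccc
C7 (chr15:5063774-5064023, minus strand): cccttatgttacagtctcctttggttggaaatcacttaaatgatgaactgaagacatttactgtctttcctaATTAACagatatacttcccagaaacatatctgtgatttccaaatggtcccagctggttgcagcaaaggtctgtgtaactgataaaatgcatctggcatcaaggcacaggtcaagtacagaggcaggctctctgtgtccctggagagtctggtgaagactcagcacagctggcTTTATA

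Regulators in plasma differed little, and 1 of 5 was called. Clu, which encodes clusterin, an inhibitor of the membrane attack complex and a lipoprotein chaperone, lay between 11.53 and 11.93 in the controls (median 11.76) and between 11.87 and 12.29 in the NASH model (median 12.12). It rose by 0.36 ± 0.08 SE or 1.28-fold (adjusted p = 0.0033), and 7 of 8 NASH model samples were above the highest control. Without control 5 and 10 and NASH model 2 and 7 together, Clu was not called. Serping1, the inhibitor of the C1 proteases, differed by -0.13 (95% interval -0.31 to 0.06), C4bp, which binds C4b, by -0.07 (-0.26 to 0.13) and Vtn, vitronectin, by -0.10 (-0.25 to 0.05). Cfi, the protease that degrades C3b and C4b, lay between 10.51 and 10.79 in the controls and between 10.40 and 10.56 in the NASH model. Its difference of -0.18 ± 0.07 did not pass (adjusted p = 0.074), but the exact permutation test called it (adjusted p = 0.0070), as did the fit with array median centring (adjusted p = 0.023), which also called Vtn (-0.20 ± 0.07, adjusted p = 0.032). All 5 genes are bright, with means over the 16 samples from 10.08 for C4bp to 12.35 for Vtn, where the highest deposited value was 12.74. The part of that upper limit in their differences was not tested.

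All 3 regulators on cell membranes fell. Cd59a, which blocks the assembly of the membrane attack complex, lay between 7.96 and 8.29 in the controls (median 8.19) and between 7.27 and 7.94 in the NASH model (median 7.6), a fall of 0.57 ± 0.10 SE (adjusted p = 2.4e-04) with no overlap. Cd55, which speeds the decay of the convertases, lay between 5.41 and 5.94 and between 4.59 and 5.66, a fall of 0.47 ± 0.13 SE (adjusted p = 0.012). Cd46, a cofactor for cleavage by factor I that mice are known to make mainly in testis, lay between 3.13 and 4.37 and between 2.77 and 3.65, near the floor, and fell by 0.49 ± 0.16 SE (adjusted p = 0.031). The last 2 falls overlapped and depended on the samples and the scaling. With values as deposited Cd55 was at adjusted p = 0.057 and Cd46 at 0.065, and with spike-in centring they were at 0.20 and 0.19. Neither was called without control 5 and 10. Cd46 was also lost when any 1 of control 5, 9 or 10 or NASH model 1b, 5 or 6 was left out, with adjusted p-values of 0.051 to 0.066.

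Of the 3 anaphylatoxin receptors 2 rose, by more than any other of the 33 genes, and 1 fell. C3ar1, the receptor of C3a on myeloid cells, lay between 3.68 and 5.52 in the controls (median 4.81) and between 7.47 and 8.29 in the NASH model (median 7.75). It rose by 3.08 ± 0.20 SE or 8.46-fold (adjusted p = 7.3e-10). C5ar1, the signalling receptor of C5a, lay between 2.33 and 3.66 (median 3.08), with 3 of 8 controls below the floor, and between 5.09 and 5.77 (median 5.33) in the NASH model. It rose by 2.37 ± 0.16 SE or 5.16-fold (adjusted p = 1.8e-09), a size that background in the controls limits. Both groups of values were far apart, and leaving out any of the samples tried kept both calls.

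C5ar2, the second C5a receptor, which does not couple to G proteins, fell. It lay between 3.60 and 4.72 in the controls (median 4.20) and between 3.19 and 3.88 in the NASH model (median 3.69), a fall of 0.52 ± 0.13 SE (adjusted p = 0.0065). The groups overlapped through control 9 alone, at 3.60, and the levels are near the background floor of 2.89. With spike-in centring the difference was -0.31 ± 0.16 and did not pass (adjusted p = 0.18). C5ar1 is also a receptor of neutrophils, and of 7 neutrophil markers 2 rose and 0 fell, with a mean level of 2.63 to 3.82 in the controls and 3.29 to 4.03 in the NASH model. The 2 were Csf3r, the receptor for granulocyte colony-stimulating factor, at 1.30 ± 0.25 without overlap, and S100a8, a calcium-binding protein of neutrophils and monocytes, at 1.11 ± 0.31. For S100a8 the groups overlapped and 7 of 8 controls were below the floor, so background limits the size of its difference. Mpo, an enzyme of neutrophil granules, was below the floor in all 16 samples. The part of neutrophils and of the macrophage markers above in the receptor values was not tested.

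**Figure D3:**
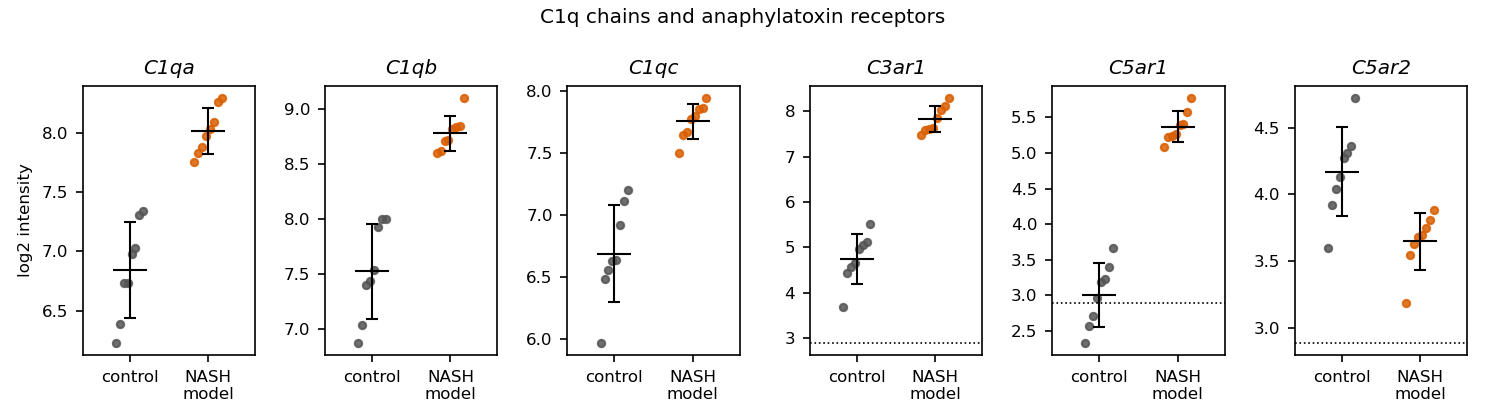
Log2 intensity of the 3 C1q chains and the 3 anaphylatoxin receptors, 1 point per sample, with bars for the mean and SD of 8 samples and a dotted line at the background floor of 2.89. All NASH model points lie above all controls for the C1q chains, C3ar1 and C5ar1, and the groups overlap for C5ar2, where the NASH model mean is lower.

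C5ar2 and C5ar1 are adjacent on chromosome 7, and their promoters are shown as those of neighbours that moved in opposite directions. Capitals mark TTGCNNAA on either strand, letters that C/EBP factors are known to bind and that 9.55% of all RefSeq promoters hold in this window. They matched 210 and 166 bases before the start of C5ar2. No searched motif matched in the C5ar1 window.
C5ar2 (chr7:16244155-16244404, minus strand): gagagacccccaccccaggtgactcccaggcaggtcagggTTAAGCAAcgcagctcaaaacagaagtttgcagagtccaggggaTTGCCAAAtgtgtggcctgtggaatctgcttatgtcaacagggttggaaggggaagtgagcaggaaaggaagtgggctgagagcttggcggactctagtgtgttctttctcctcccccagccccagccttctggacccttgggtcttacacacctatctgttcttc
C5ar1 (chr7:16259339-16259588, minus strand): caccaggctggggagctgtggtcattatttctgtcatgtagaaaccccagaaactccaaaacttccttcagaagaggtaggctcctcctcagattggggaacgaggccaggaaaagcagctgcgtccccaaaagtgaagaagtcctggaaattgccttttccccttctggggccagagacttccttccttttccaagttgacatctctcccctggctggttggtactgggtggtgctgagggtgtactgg

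The other genes of the system followed both directions. Of 30 listed genes 26 were measured, of which 4 rose and 11 fell, against 13.2% and 13.4% of all genes. The 4 that rose are surface proteins of leukocytes or endothelium. Itgam and Itgax, the alpha chains of complement receptors 3 and 4, and Itgb2, their shared beta chain, bind the C3 fragment iC3b. Itgam lay between 2.67 and 5.73 in the controls (median 3.35) and between 6.63 and 7.19 in the NASH model (median 6.76), a rise of 3.18 ± 0.31 (adjusted p = 1.8e-07). Control 4 stood above the other controls, which were at 2.67 to 4.09, and without it the rise was 3.47 ± 0.18. Itgax rose by 2.77 ± 0.15, Itgb2 by 2.89 ± 0.17 and Cd93, a C-type lectin first described as a C1q receptor, by 1.63 ± 0.13. Itgax is also in the list of recruited macrophage markers. Vsig4, the iC3b receptor of Kupffer cells, was at -0.19 ± 0.20, short of the threshold (adjusted p = 0.56).

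Susd4, a membrane protein known to inhibit the C3 convertases, showed the largest fall of the complement genes examined. It lay between 7.20 and 8.02 in the controls (median 7.67) and between 2.46 and 5.17 in the NASH model (median 4.51), a fall of 3.47 ± 0.32 SE or 11.1-fold (adjusted p = 1.2e-07). NASH model 2 (2.72) and NASH model 7 (2.46) were below the floor and the other 6 were at 4.42 to 5.17. Without those 2 samples the fall was 7.68-fold (adjusted p = 4.7e-10). Cd59b, the second mouse Cd59 gene, fell by 0.89 ± 0.15 SE, while Cd55b, the second mouse Cd55 gene, differed by -0.03 ± 0.14 and Cr1l, the rodent regulator Crry, by 0.14 ± 0.08, and neither passed (adjusted p = 0.89 and 0.23).

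Several further plasma proteins of the system fell. Cfhr2, a relative of factor H, fell by 0.78 ± 0.08 SE, from 9.39 to 9.73 in the controls to 8.56 to 8.93 in the NASH model. C4a differed by -0.66 ± 0.13 and C1s2 by -0.52 ± 0.11. Cpn1 and Cpn2, the subunits of the carboxypeptidase that trims C3a and C5a, differed by -0.42 ± 0.07 and -0.76 ± 0.12. Among pattern recognition proteins, the collectin gene Colec10 differed by -1.22 ± 0.21, the scavenger collectin Colec12 by -0.44 ± 0.11 and Crp, C-reactive protein, by -0.79 ± 0.14, while Colec11 (0.14 ± 0.12), Apcs (-0.15 ± 0.34) and Ptx3 (-0.06 ± 0.11) did not pass. Calr, the chaperone calreticulin, which binds C1q, fell by 0.65 ± 0.11 SE. The groups of all these called genes did not overlap, apart from Colec12 and Calr. Colec12 was not called with spike-in centring (-0.31 ± 0.12, adjusted p = 0.070) or with the clock score (adjusted p = 0.18).

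**Figure D4:**
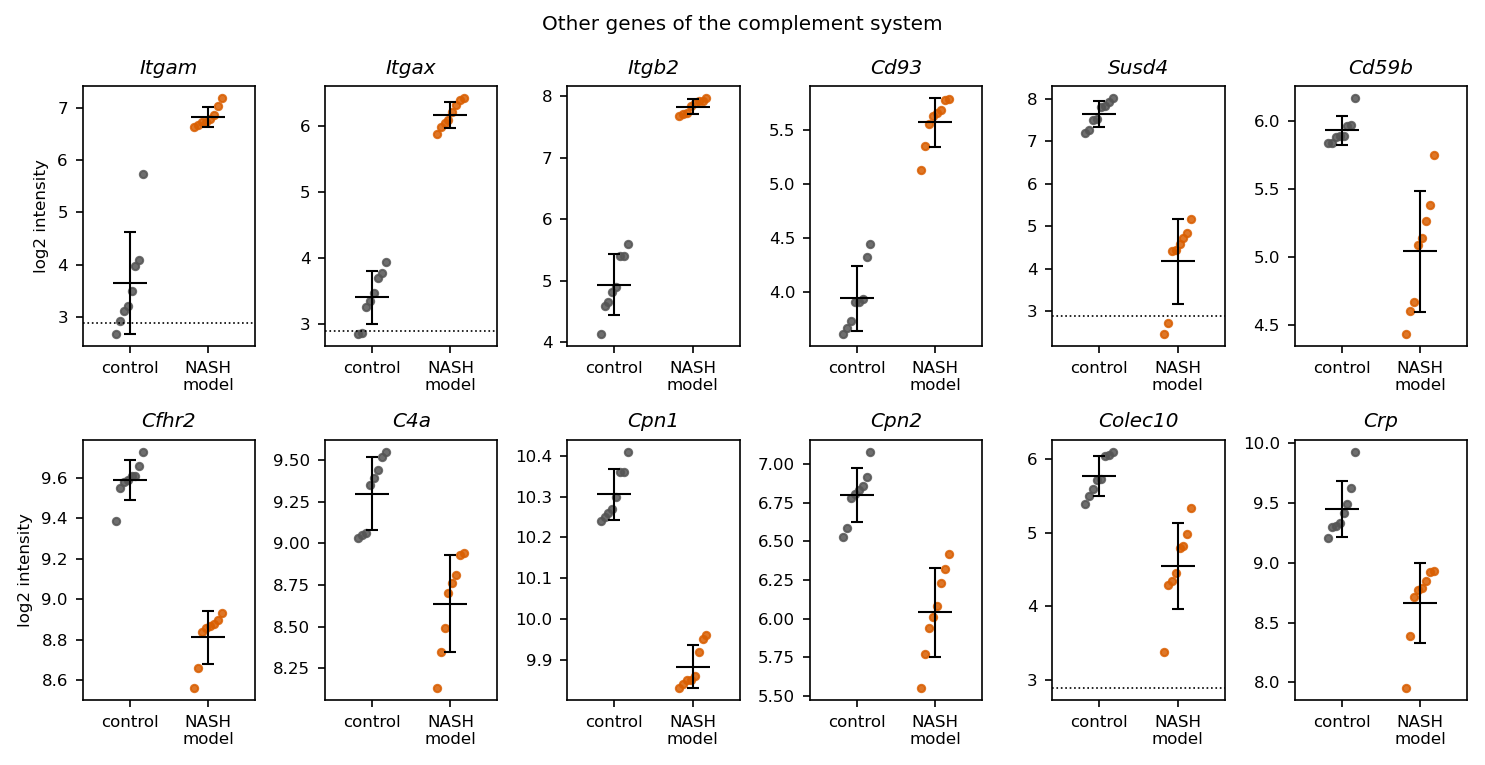
Log2 intensity of 12 further genes of the complement system, 1 point per sample, with bars for the mean and SD of 8 samples and a dotted line at the background floor of 2.89. Itgam, Itgax, Itgb2 and Cd93 are higher in every NASH model sample, the other 8 genes are lower, and NASH model 2 and NASH model 7 lie below the floor for Susd4.

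Within each group, complement genes were low together in particular samples. Control 5 and control 10 were the 2 lowest controls for 17 of the 33 genes (51.5%), against 5.04% of all genes, and the 2 highest for 0. These 2 controls were picked after the values were seen, so a larger share than over all genes is in part built in and is no test. The 17 span the pathways and include C1qa, C4b, Hc, C6, C8a, C8b, C9, Mbl1, Cfp, Serping1 and Clu. The same controls had the lowest mean level of 18 acute-phase genes, at 8.64 and 8.56 against 9.29 to 10.74 in the other controls, and the lowest pan-macrophage marker levels, at 5.81 and 5.75 against 5.90 to 6.59. Their hepatocyte marker means were 11.00 and 11.02, against 11.01 to 11.09 in the other controls. Their Kupffer cell marker means were the lowest, at 5.73 and 5.98 against 6.21 to 7.0. Their sinusoidal endothelial marker means were the highest, at 6.56 and 6.74 against 6.20 to 6.53. So were their core clock gene means, at 6.73 and 6.69 against 6.17 to 6.40. The part of these markers and clock genes in the low values was not tested.

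In the NASH model, samples 2 and 7 were the 2 lowest for 11 of the 33 genes (33.3%), against 6.65% of all genes, and the 2 highest for Clu and C3ar1. This pair too was picked with results of these data known, so the shares are a description and no test. The 11 were C1ra, C1rl, C1s1, C2, C4b, Mbl1, Masp1, Masp2, C6, C8a and C8b. The C1q chains were not among them. These samples had hepatocyte marker means of 10.81 and 10.78 against 10.81 to 10.89 in the other 6, and cholangiocyte marker means of 5.74 and 6.34 against 3.79 to 5.71. Their acute-phase means, 9.21 and 9.20, were also the lowest of the group, against 9.35 to 9.50 in the other 6. Their array weights, which are lower for noisier arrays, were 0.962 and 0.761, against 1.013 to 1.44 in the other 6. The controls had weights of 0.731 to 0.987. The mean of the spike-in controls was 10.022 in NASH model 2 and 9.815 in NASH model 7, the lowest of the 16 samples. The part of these markers and of array quality was not tested. The acute-phase genes as a list had 0 higher and 7 lower of 18, with a median of -0.24, and these counts depended on single samples. Without control 5 or control 10 there were 10 lower. With any 1 of controls 1, 3, 4, 7 and 9 or NASH model 1a, 2, 3, 4, 5 and 6 left out there were 4 lower, and without control 4 there were also 3 higher.

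**Figure D5:**
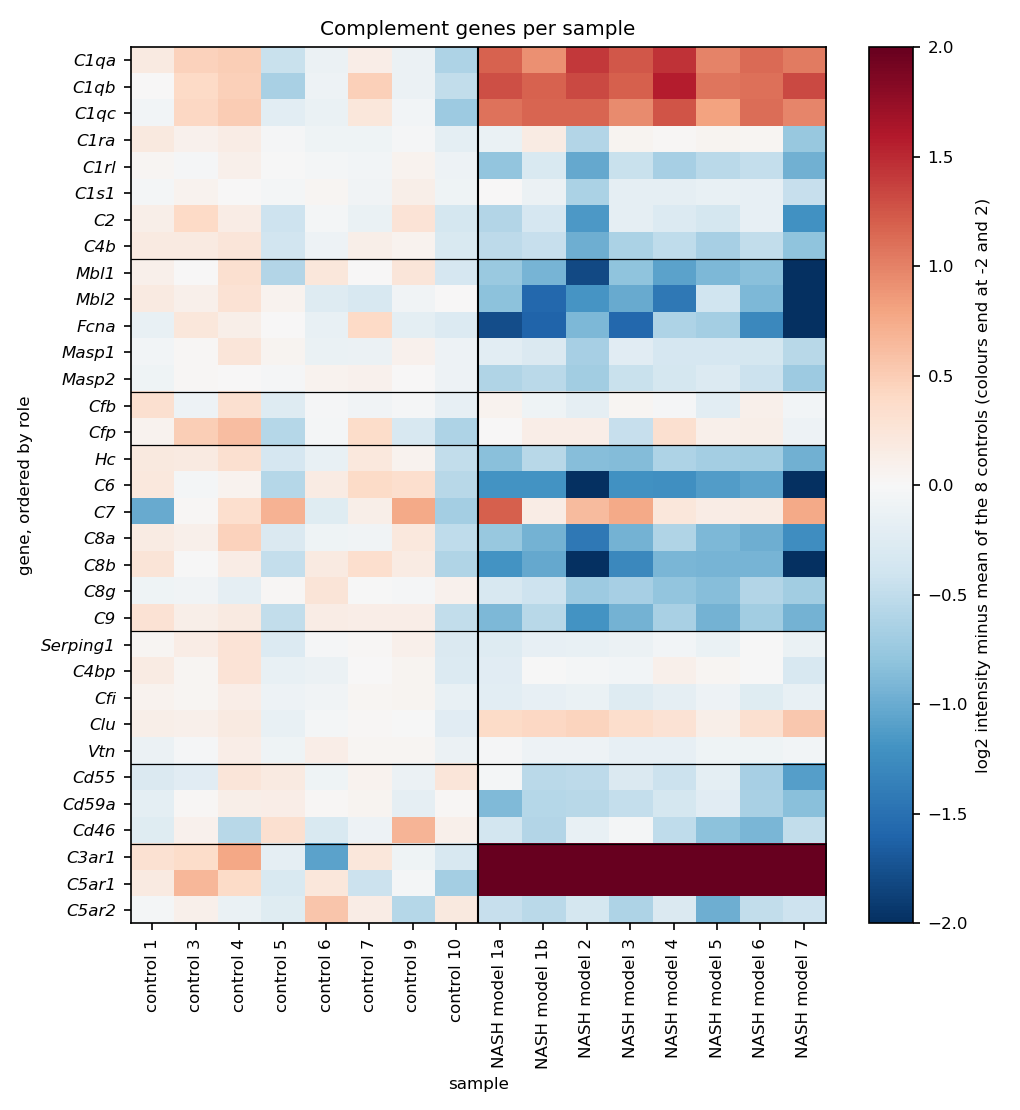
Log2 intensity of the 33 complement genes in each of the 16 samples, minus the mean of the 8 controls, ordered by role, with colours that end at -2 and 2. Rows of the C1q chains, C3ar1 and C5ar1 are red and those of the lectin and terminal genes other than C7 blue in every NASH model sample, with control 5 and control 10 paler or bluer than the other controls in many rows and NASH model 2 and 7 darkest for C6, C8b and Mbl1.

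Core clock genes differed between the groups too, with 4 of 15 higher and 5 lower, and the labels give no time of collection. A clock score ran from -6.86 to 4.72 in the controls and from 1.70 to 3.75 in the NASH model. Control 5 had the highest score, at 4.72, and control 10 was at -3.00. Its gene weights came from the first within-group component of these genes. They were applied to values centred over all 16 samples, so the score also carries the difference between the groups. Part of the group effect and the score therefore cannot be told apart, and SEs were wider with it (C1qa 0.22 in place of 0.15, C2 0.24 in place of 0.17). With that score as a covariate 6 complement genes were higher and 15 lower, and C2 (adjusted p = 0.31), Cd46 (0.26) and C5ar2 (0.20) were not called, while 2967 of all genes were called in place of 5196. The column medians of the deposited values differed by 0.14. The balance of all calls depended on the scaling: 49.6% of called genes were higher in the main analysis, 39.2% with array median centring and 73.7% with spike-in centring. The complement genes were split 6 higher and 18 lower, 6 and 21, and 7 and 15 under the same scalings. The median difference over all genes was -0.04, -0.12 and 0.06.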

How the data were processed

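Total RNA was isolated with TRIzol and biotin-labelled by the standard Affymetrix protocol, per the labels' protocols. The values are the log2 intensities per probe set that the authors deposited, 29129 in all, from 0.62 to 12.74. The way they were summarized and scaled, and the genome build, are not given in the sources here. Quantile normalization was applied, since column medians ran from 3.52 to 3.66, and moved no value by more than 0.16. Probe sets were named from the platform annotation (19572 with 1 symbol, 0 with several, 9557 with none listed), and the probe set with the highest mean was kept for each of 19505 genes. Groups were compared with limma 3.58.1 in R 4.3.3 (lmFit, eBayes, group as the only term, two-sided, Benjamini-Hochberg), which was also tested on simulated data. Figures were drawn with matplotlib 3.10.9. The background floor comes from 1412 receptor genes. Array number, not count depth, limits precision.

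No label ties a sample to a separate animal. The p-values therefore cover only the variation among these samples, which may be technical. NASH model 1a and 1b differed (SD of gene-wise differences 0.387) like other pairs (0.340 to 0.466) and were kept separate. Named by rule were all measured members, other complement genes that were called or whose groups did not overlap, and up to 3 called genes of a marker list with the largest changes. Alb, Apob, Ahsg, Hnf4a, Fgb, Folr2, Cd5l, Marco, Clec1b, Mpo, Vsig4, Cd55b, Cr1l, Colec11, Apcs and Ptx3 fall outside it and were named after their values were seen. The members and lists were chosen with earlier results of these data known. Alternatives covered scaling, a filter on dim genes, probe set choice, fit options, array weights, an exact permutation test over samples, a clock score, the replicate number as a block, and samples left out. Promoters come from RefSeq (GRCm38.p6), where 25 of 33 genes had an entry. Motifs of PU.1, HNF1 and C/EBP and the TATA box were searched on both strands in the 250 bases before each start.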

Additional observations from a re-analysis of the deposited data

How the results depend on the processing

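Of the 24 complement genes called, 19 were called in all 32 alternative settings. The other 5 were C2, Clu, Cd55, Cd46 and C5ar2. Taking the mean of all probe sets, 1 of the 32 settings, could not change the values of the complement genes, since each had 1 probe set. No difference that was called in the main fit or in an alternative changed direction between them. Small differences that were not called did change sign, such as C1ra (-0.14, and 0.04 without NASH model 2 and 7) and Cfp (0.03, and -0.17 without control 5 and 10). The count of complement genes stayed between 5 and 7 higher and between 15 and 21 lower. Leaving out 1 sample in turn gave 6 higher and 17 to 19 lower. The counts over all genes moved more. With the clock score 1614 were higher and 1353 lower, 2967 in all, and with spike-in centring 1179 were lower; for the clock score the cause was not tested. In a fit with the replicate number as a block, limited to the 13 samples with shared numbers, 3924 genes and 21 complement genes (5 higher, 16 lower) were called, and without the block in the same samples 4263 and 21. The calls lost were Clu (0.30, adjusted p = 0.058), Cd55 and Cd46 with the block, and C2, Cd55 and Cd46 without it, where Clu was kept (adjusted p = 0.028). Same-numbered samples did not deviate together (correlations of -0.024 to 0.059, and none was highest with its own number), so the 6 shared numbers were not taken as pairs. The settings without control 5 and 10, with and without NASH model 2 and 7, and the fit without the block were chosen after seeing the data. Without control 5 and 10, 6 complement genes were higher and 17 lower. C7, Cd46 and C5ar2 lie near the background floor, which limits what can be read from them.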

Other observations

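Promoter entries were at hand for 25 of the 33 complement genes, and GTTAAT on either strand, part of the HNF1 site, was found in the 250 bases before the start of 0 of 4 genes that rose, 3 of 15 that fell (Hc, C8b and C8a) and 5 of 6 that did not pass (C4bp, C1ra, Vtn, C7 and Cfp), against 6.52% of 27025 RefSeq promoters. GAGGAA, the PU.1 core, was found in 2 of 4 that rose (C1qb and C1qc), 2 of 15 that fell (Fcna and Cd59a) and 0 of 6 that did not pass, against 23.1%. These are counts of letters, with no test, over genes that were chosen by function.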
